A study of Mus musculus with 8 samples.

Results

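The transcripts examined here encode the brakes of the cell division cycle, the CDK inhibitors and the retinoblastoma (Rb) family. They were chosen by name as 10 genes, Cdkn1a, Cdkn1b, Cdkn1c, Cdkn2a, Cdkn2b, Cdkn2c, Cdkn2d, Rb1, Rbl1 and Rbl2, and each was found as 1 row among the 26642 rows (22036 annotated genes) of the count table. They were measured by mRNA sequencing in CT26 cells, a mouse colon carcinoma line grown in culture. Unedited cells, labelled WT, gave 4 libraries, and cells labelled Tead1/4 knockout gave the other 4. The 2 edited genes encode TEAD transcription factors, through which the Hippo-controlled coactivators YAP and TAZ reach DNA. The labels give neither the edited sites, nor whether the knockout cells are 1 clone or several, nor whether replicates are separate cultures, so every p-value rests on a spread between libraries that may be technical only.

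Cyclin-dependent kinases drive cells from G1 into DNA synthesis by phosphorylating the pocket proteins Rb (Rb1), p107 (Rbl1) and p130 (Rbl2), which otherwise hold E2F transcription factors in check. The INK4 inhibitors (Cdkn2a, Cdkn2b, Cdkn2c, Cdkn2d) bind the monomeric kinases CDK4 and CDK6. The Cip/Kip inhibitors p21 (Cdkn1a), p27 (Cdkn1b) and p57 (Cdkn1c) bind cyclin-CDK complexes, above all those of CDK2. Many of these inhibitors are known less for their transcript than for their regulated protein turnover, which mRNA counts do not measure.

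Levels are given as CPM, counts scaled to a common effective library size, for replicates 1 to 4 in that order or as mean ± SD with n = 4 per genotype. A log2 fold change is knockout minus WT, with its standard error (SE) and an adjusted p from edgeR's two-sided quasi-likelihood test, called at an adjusted p under 0.05. Total counts per library lay between 29679405 and 32774905. Both targeted transcripts were lower in the knockout libraries but still present, Tead1 at 67.5 ± 12.4 CPM against 206 ± 80.8 (adjusted p = 0.00217) and Tead4 at 29.3 ± 6.08 against 47.8 ± 12.2 (adjusted p = 0.0261, with overlapping ranges), both by edgeR. Counts over the whole gene do not measure loss of the protein. WT replicates 1 and 4, and likewise 2 and 3, resembled each other more than the other WT pairs (chi-square per degree of freedom 34.7 and 35 against 201 to 242), and knockout replicate 1 had fewer detected rows (14345) than the other knockout libraries (17759 to 17948). Of 8 epithelial markers 2 were tested and Krt18 rose from 38.5 to 76.3 CPM, while Epcam was at 0 in every library. Summed over 8 leukocyte markers the level lay between 0 and 0.472 CPM in WT and between 0.442 and 0.792 CPM in the knockout, and over 4 endothelial markers it was at most 0.52 CPM. The 5 fibroblast markers, led by the collagen gene Col1a2, summed to 1360 to 2020 CPM in WT and 1570 to 2070 CPM in the knockout, with Dcn (0.0355 to 7.83 CPM) and Pdgfra (8.01 to 35.9 CPM) higher there. The part of these marker differences in the results was not tested.

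Among the brakes of the cycle, 1 gene rose and 1 fell in the knockout libraries. Cdkn1a, the p21 gene, was 1.96-fold higher, and Rbl1, the p107 gene, was 2.60-fold lower. The other 5 genes with enough reads for a test, Cdkn1b, Cdkn2c, Cdkn2d, Rb1 and Rbl2, did not pass it. Cdkn1c was almost unread, and Cdkn2a and Cdkn2b had no count in any library. So 2 of 7 members tested, or 28.6%, were called, where 41.6% of all 13265 rows tested were called. The 7 members had a median log2 fold change of -0.16, and all rows tested one of 0.02. Both called members were also those whose 4 knockout values lay wholly outside the 4 WT values, which held for 40.7% of all rows. On only 7 genes, the gap between these shares is not read as a result about the members. Of all rows, 20.9% were called higher and 20.6% lower, an even split (50.4% of calls higher) that became 64.6% higher under scaling by upper quartiles and 63.5% under scaling by library size.

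**Figure D1:**
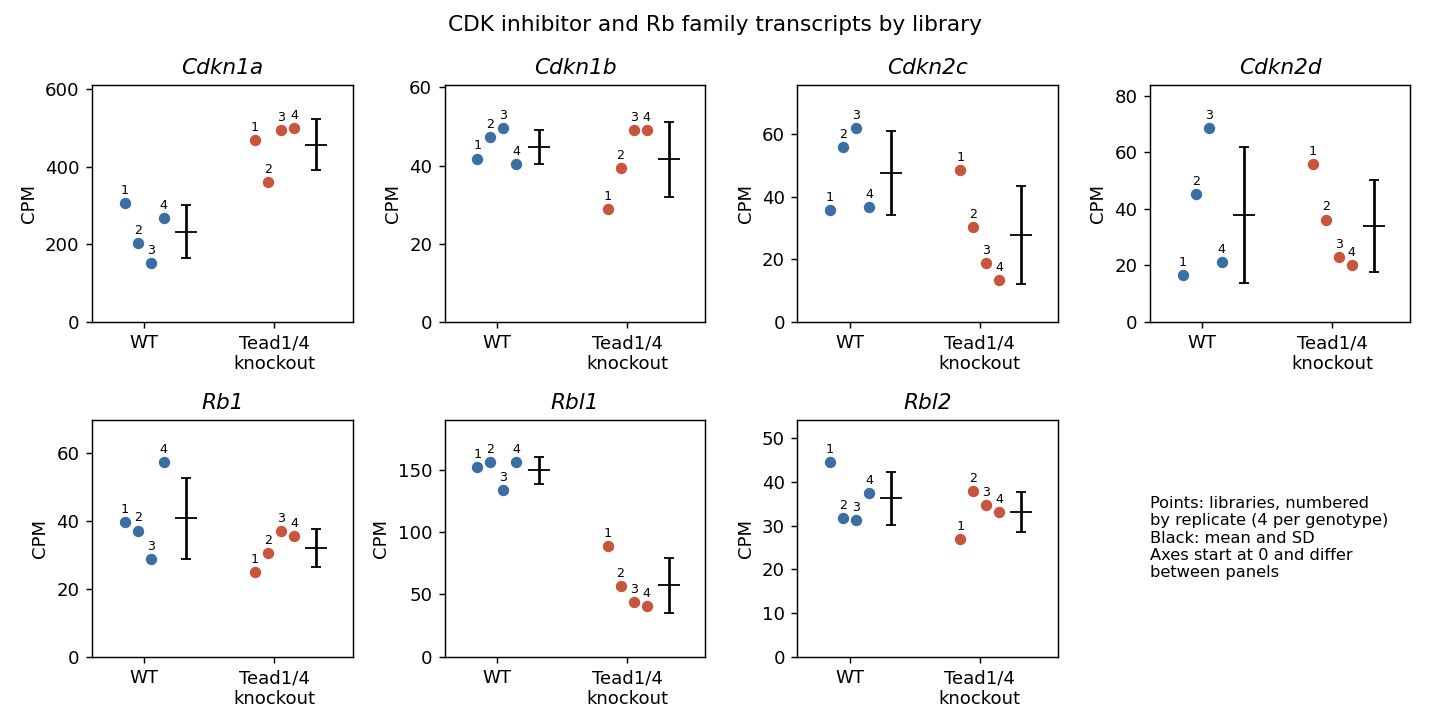
CPM (vertical axis, from 0) of the 7 members tested in each of the 8 libraries, by genotype; numbers are replicates, black marks the mean and SD of 4 libraries. Cdkn1a has all knockout points at 360 CPM or more above WT points of 307 CPM or less, Rbl1 has all knockout points at 88.9 CPM or less under WT points of 134 CPM or more, and the genotypes overlap in the other panels.

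**Figure D2:**
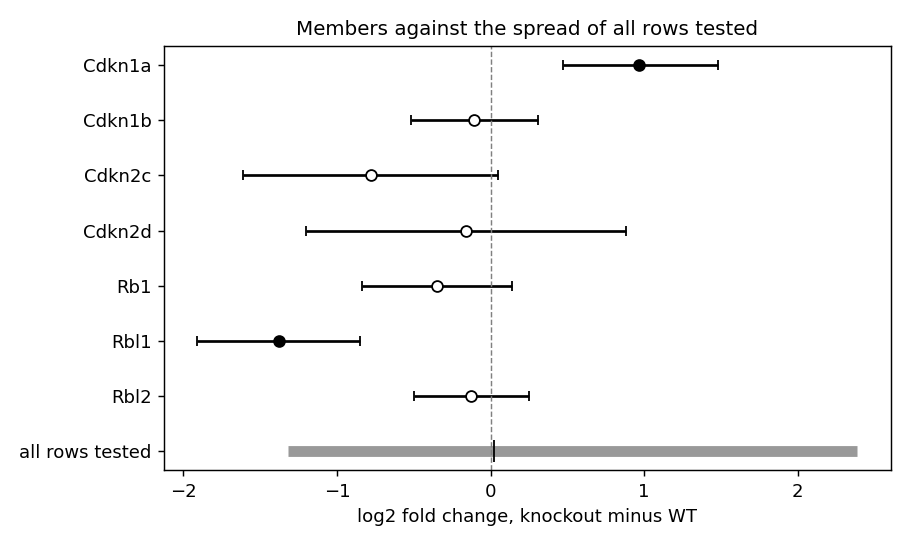
Log2 fold change (knockout minus WT) of the 7 members tested with 95% intervals from the edgeR fit, filled where the adjusted p was under 0.05; the grey bar spans the 5th to 95th percentile of all rows tested (-1.32 to 2.39) with its median marked. Cdkn1a lies to the right of 0 and Rbl1 to the left, and the intervals of the other 5 members cross 0.

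Among the Cip/Kip inhibitors, p21 was the most abundant transcript and the one that changed. Cdkn1a (ENSMUSG00000023067; GRCm38 chromosome 17, 29090976 to 29100727, plus strand), a classical target of p53 that can arrest cells in G1 and G2, was read at 307, 204, 152 and 267 CPM in WT. In the knockout libraries it was read at 469, 360, 496 and 501 CPM. The genotypes did not overlap, with the lowest knockout library, replicate 2, still above the highest WT library, replicate 1. The log2 fold change was 0.97 (SE 0.23, 95% interval 0.47 to 1.48, edgeR adjusted p = 0.00868). The exact two-sided permutation p of 0.0286 was the smallest that 70 assignments can give. It treats the libraries as exchangeable, which the closely alike WT pairs may not be. Within WT, replicates 1 and 4 were high and 2 and 3 low.

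RefSeq places 2 transcription starts in Cdkn1a, and the 250 bases before the second of them, on the plus strand of GRCm38.p6 at chr17:29093519-29093768, are shown because this is the only member that rose. No capitals stand in it, since none of the motifs searched was found. The window of the first start, not shown, held none of them either. No p53 motif was searched, so neither window was examined for one.
Cdkn1a: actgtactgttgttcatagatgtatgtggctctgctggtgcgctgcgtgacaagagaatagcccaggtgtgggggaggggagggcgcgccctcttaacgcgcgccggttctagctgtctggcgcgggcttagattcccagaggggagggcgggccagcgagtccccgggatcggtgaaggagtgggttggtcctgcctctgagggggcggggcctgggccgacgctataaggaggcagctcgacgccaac
The motifs were those of E2F (TTTCCCGC, TTTGGCGC, TTTCGCGC or TTTGCCGC), the cell cycle element CHR (TTTGAA or TTCGAA) and TEAD (GGAATG), each searched on both strands of the 250 bases before a start. Of 32851 such windows in RefSeq, 1.86% hold the E2F letters, 17.1% the CHR letters and 12.6% the TEAD letters.

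Cdkn1b and Cdkn1c did not follow Cdkn1a. Cdkn1b (ENSMUSG00000003031; chromosome 6, 134920401 to 134925513, plus strand), which encodes p27, an inhibitor linked to quiescence, stood at 41.8, 47.3, 49.7 and 40.4 CPM in WT. Its knockout values were 28.9, 39.4, 49.2 and 49.0 CPM. Knockout replicate 1 lay under every WT library and the other 3 lay within or just under the WT range. The log2 fold change was -0.11 (95% interval -0.52 to 0.31, edgeR adjusted p = 0.663), an interval that holds changes of either sign. Its sign turned positive under scaling by upper quartiles (0.075), under scaling by library size (0.084) and without knockout replicate 1 (0.017). Cdkn1c (ENSMUSG00000037664; chromosome 7, 143458339 to 143461050, minus strand), the imprinted p57 gene, had 7 counts in knockout replicate 4, which is 0.214 CPM, and 0 in the other 7 libraries. It did not pass the filter on low counts.

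A ratio of transcripts within a library does not depend on the scaling between libraries. Members were therefore also set against each other per kilobase of exon, without a test. Per kilobase, Cdkn1a exceeded Cdkn1b by 9.40, 5.53, 3.92 and 8.47 times in WT and by 20.8, 11.7, 12.9 and 13.1 times in the knockout libraries. The ranges did not overlap, and the mean log2 ratio was 1.14 higher in the knockout. Cdkn1a alone did not overlap either, so the ratio is not a separate result. Of all single rows tested, 40.7% did not overlap. Of the Cip/Kip signal per kilobase, Cdkn1a made up 86.0 ± 4.92% (SD, n = 4) in WT and 93.3 ± 1.44% in the knockout.

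The INK4 inhibitors fell into a silent pair and an expressed pair. Cdkn2a (ENSMUSG00000044303; chromosome 4, 89274471 to 89294653, minus strand), which encodes p16 and, in another reading frame, the p53-stabilising protein ARF, had 0 counts in all 8 libraries. Cdkn2b (ENSMUSG00000073802; chromosome 4, 89306299 to 89311039, minus strand), the neighbouring p15 gene, also had 0 counts in all 8. A count of 0 in a library allows up to 3 counts, here 0.0873 to 0.110 CPM. Whether the genes are deleted or unread in these cells was not tested, since counts of RNA cannot show it. Their neighbours differed among themselves. Mtap, which encodes an enzyme of methionine salvage and ends 93.4 kb from Cdkn2a, had 4396 to 10126 counts per library. In CPM it went down from 272 ± 59.4 to 149 ± 11.2, a log2 fold change of -0.87 (SE 0.17; adjusted p = 0.00422 by edgeR). Klhl9, 552 kb away on the same side, rose from 46.9 ± 5.42 to 64.1 ± 8.57 CPM (0.45, SE 0.15, adjusted p = 0.0370). On the other side of the pair Dmrta1 had no count, and Elavl2 and, on the Mtap side, the interferon gene Ifne had 2 counts each. Within 2 Mb of Cdkn2a on either side, a window chosen after its counts were seen, the table holds 42 rows with Cdkn2a and Cdkn2b included, of which 15 had no count, 21 had 1 to 100 counts over all libraries and 6 had more.

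The expressed INK4 genes were spread widely within each genotype, and neither passed the test. Cdkn2c (ENSMUSG00000028551; chromosome 4, 109660876 to 109667189, minus strand), which encodes p18, was at 35.7, 56.0, 62.1 and 36.8 CPM in WT. It was at 48.5, 30.4, 18.7 and 13.4 CPM in the knockout libraries. Only knockout replicate 1 lay inside the WT range, and the other 3 lay under all WT values. The log2 fold change of -0.78 (SE 0.37, 95% interval -1.61 to 0.05) did not pass (edgeR adjusted p = 0.116). It passed without knockout replicate 1, at -1.21 (adjusted p = 0.014). Cdkn2d (ENSMUSG00000096472; chromosome 9, 21288410 to 21291407, minus strand), which encodes the INK4 protein p19, was at 16.5, 45.2, 68.7 and 21 CPM in WT. It was at 55.9, 36.2, 23.0 and 20.2 CPM in the knockout libraries. WT alone spanned a wider range than the knockout, with replicates 1 and 4 low and 2 and 3 high, and the genotypes overlapped almost entirely. The log2 fold change was -0.16 (SE 0.47, 95% interval -1.20 to 0.88, edgeR adjusted p = 0.799). It became positive without WT replicate 3 (0.268) and without knockout replicate 4 (0.025). The proportion of the pair was not tested. Per kilobase, Cdkn2d stood at 0.789, 1.38, 1.89 and 0.973 times Cdkn2c in WT. In the knockout libraries it stood at 1.97, 2.03, 2.10 and 2.58 times. These ranges did not overlap, but WT replicate 3 lay close to knockout replicate 1. Within WT, replicates 1 and 4 lay below 2 and 3. Among single rows, 40.7% of all those tested did not overlap.

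Cdkn1a and the expressed INK4 genes were high in opposite WT libraries. WT replicates 1 and 4 had the higher Cdkn1a and the lower Cdkn2c and Cdkn2d, and replicates 2 and 3 the reverse. Summed per kilobase over all CDK inhibitors, the 4 WT libraries were therefore close together, at 119, 117, 121 and 111 CPM per kilobase. The knockout libraries summed to 192, 144, 172 and 170 CPM per kilobase, all above WT, as those of Cdkn1a alone were. Of all single rows tested, 40.7% did not overlap between genotypes. Cdkn1a made up 35.6% to 72.4% of that sum in WT and 68.8% to 83.1% in the knockout libraries. The labels do not say what the paired WT libraries share, and its part in these differences was not tested.

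**Figure D3:**
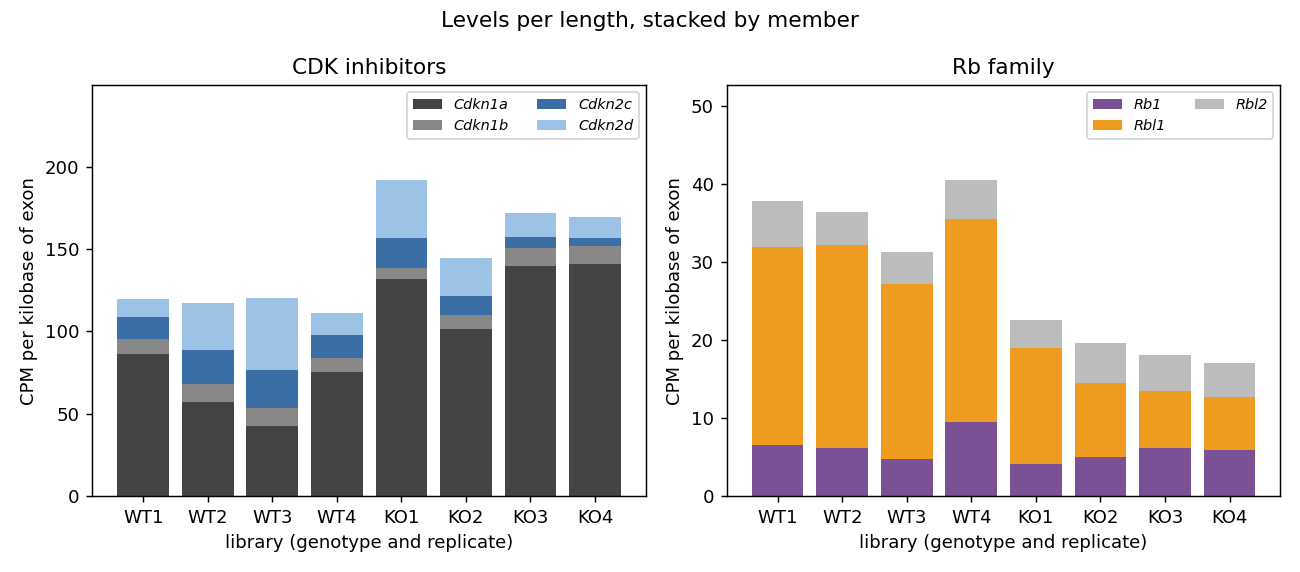
Stacked levels in CPM per kilobase of exon for the 4 CDK inhibitors tested (left) and the 3 Rb family genes (right) in each library. Bars for the inhibitors reach 111 to 121 in WT and 144 to 192 in the knockout; those for the Rb family reach 31.3 to 40.6 in WT and 17.1 to 22.5 in the knockout, where the Rbl1 segment is shorter.

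Of the pocket proteins, p107 changed. Rbl1 (ENSMUSG00000027641; chromosome 2, 157145893 to 157204534, minus strand), itself a well-known E2F target that accumulates in proliferating cells, was read at 152, 156, 134 and 156 CPM in WT. The knockout libraries read 88.9, 56.8, 43.6 and 40.6 CPM. WT was tight, with a coefficient of variation of 6.98%, while the knockout libraries were spread over 38.4%, and the genotypes did not overlap. The log2 fold change was -1.38 (SE 0.24, 95% interval -1.91 to -0.85, edgeR adjusted p = 0.00258). The exact two-sided permutation p was 0.0286, and it too treats the libraries as exchangeable. In bulk RNA, fewer cells expressing a gene and less RNA of it per cell cannot be told apart.

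The 250 bases before the Rbl1 start (GRCm38.p6, chr2:157204535-157204784, minus strand) are shown because it was the member that fell, beside those of Rbl2 (chr8:91069807-91070056, plus strand), its closest relative in the family. Capitals mark motif letters found on either strand.
Rbl1: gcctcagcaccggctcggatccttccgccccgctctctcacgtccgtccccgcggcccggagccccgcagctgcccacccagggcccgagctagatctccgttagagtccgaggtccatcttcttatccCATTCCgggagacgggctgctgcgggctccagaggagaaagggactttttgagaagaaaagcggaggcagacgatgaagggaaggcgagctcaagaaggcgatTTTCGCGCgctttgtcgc
Rbl2: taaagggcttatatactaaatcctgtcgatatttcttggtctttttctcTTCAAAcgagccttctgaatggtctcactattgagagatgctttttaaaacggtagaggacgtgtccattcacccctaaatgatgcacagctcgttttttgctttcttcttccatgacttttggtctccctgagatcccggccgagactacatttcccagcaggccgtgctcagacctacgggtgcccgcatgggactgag
The Rbl1 window holds the TEAD letters on the reverse strand, 121 to 116 bases before the start, and the E2F letters TTTCGCGC 18 to 11 bases before it. The Rbl2 window holds only the CHR letters TTTGAA on the reverse strand, 201 to 196 bases before the start. The motifs do not overlap each other. Of the 8 members with a RefSeq window (11 windows in all), the E2F letters were found for Rbl1 and Cdkn2a, the CHR letters for Rbl2 and Cdkn2b, and the TEAD letters for Rbl1. A match of letters does not show that a factor binds there.

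Rb1 and Rbl2 kept levels that overlapped between genotypes. Rb1 (ENSMUSG00000022105; chromosome 14, 73183673 to 73325822, minus strand), the retinoblastoma tumour suppressor, was at 39.7, 37.2, 28.9 and 57.3 CPM in WT. It was at 25.0, 30.5, 37.1 and 35.6 CPM in the knockout libraries. WT replicate 4 stood highest and knockout replicate 1 lowest, with the rest interleaved (log2 fold change -0.35, 95% interval -0.84 to 0.14, edgeR adjusted p = 0.224). Rbl2 (ENSMUSG00000031666; chromosome 8, 91070057 to 91123844, plus strand), which encodes p130, the pocket protein of quiescent cells, was at 44.5, 31.8, 31.3 and 37.4 CPM in WT. It was at 26.9, 38.0, 34.7 and 33.1 CPM in the knockout libraries. Knockout replicate 1 lay under all WT libraries and the other 3 inside their range (-0.13, 95% interval -0.50 to 0.25, edgeR adjusted p = 0.561). The sign for Rbl2 turned positive under scaling by upper quartiles (0.063) and by library size (0.069). Exons of Rb1 share 488 bases with those of Rcbtb2 and 408 with those of Lpar6, and exons of Rbl2 share 693 bases with those of Aktip, all on the opposite strand. The sources used here do not say whether counting used strand, so reads from these stretches cannot be assigned.

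Within the Rb family p107 made up a smaller share in 3 of the 4 knockout libraries. Per kilobase, Rbl1 was 67.0%, 71.5%, 71.5% and 64.3% of the family's transcripts in WT. It was 65.8%, 48.4%, 40.4% and 39.7% in the knockout libraries, so that knockout replicate 1 remained within the WT range and the other 3 lay under it. Rbl2 made up 13.1 ± 1.74% (SD, n = 4) in WT and 23.1 ± 4.90% in the knockout, where its lowest library, replicate 1 at 15.8%, lay just above the highest WT library at 15.5%. The ratio of Rbl2 to Rbl1 was 0.232, 0.162, 0.185 and 0.190 in WT and 0.240, 0.530, 0.630 and 0.646 in the knockout libraries. Rbl2 itself stood at 4.79 ± 0.814 CPM per kilobase in WT and 4.39 ± 0.616 in the knockout. Its larger share and ratio therefore restate the lower Rbl1 and are not separate results. The ratio of Rb1 to Rbl2 overlapped between genotypes, at 1.12 to 1.93 in WT and 1.01 to 1.35 in the knockout.

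Ordered by level per kilobase, Cdkn1a came first in WT at 65.5 ± 19.2 CPM per kilobase (SD, n = 4), above Rbl1 (25.0 ± 1.74), Cdkn2d (24.0 ± 15.3), Cdkn2c (17.7 ± 5.00), Cdkn1b (9.85 ± 0.972), Rb1 (6.78 ± 1.99) and Rbl2 (4.79 ± 0.814). The ranges of neighbours overlapped between Rbl1 and Cdkn2d, Cdkn2d and Cdkn2c, Cdkn1b and Rb1, and Rb1 and Rbl2. In the knockout libraries Cdkn1a stood at 128 ± 18.5 CPM per kilobase and the next gene, Cdkn2d, at 21.5 ± 10.3. Cdkn2c (10.3 ± 5.79), Rbl1 (9.59 ± 3.69) and Cdkn1b (9.14 ± 2.11) followed with overlapping ranges, so that Rbl1 stood below Cdkn2d and Cdkn2c where it had stood above them, among neighbours it could not be separated from in either genotype. Rb1 (5.33 ± 0.908) and Rbl2 (4.39 ± 0.616) were again lowest of the 7, with overlapping ranges. These lengths join all annotated exons of a gene and do not follow which isoform is used.

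For each called member the 3 most alike genes across the 8 libraries were looked up. The nearest of 9827 genes lie close by selection, and members that were not called were not searched. Closeness alone is therefore not a result about the called members. Likeness was the root mean square difference between log2 CPM values, each gene centred on its own mean, over the 9827 annotated genes whose mean reached 5 CPM. For Cdkn1a the 3 most alike genes were Mdm2, the p53 antagonist and p53 target, at 0.166, Slc9b1 at 0.172 and B2m, the light chain of MHC class I, at 0.184, where the median gene stood at 0.71. Mdm2 was at 222, 130, 128 and 202 CPM in WT and at 291, 320, 377 and 390 CPM in the knockout libraries, with the same high and low WT pairs as Cdkn1a. For Rbl1 they were Smg5, a factor of nonsense-mediated decay, at 0.073, the nucleoporin gene Nup133 at 0.097 and Cdc25a, the phosphatase that activates CDK2, at 0.097, against a median of 0.78. Cdc25a read 74.8, 64.5, 70.3 and 72.9 CPM in WT and 45.3, 28.2, 21.3 and 20 CPM in the knockout libraries.

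Within the knockout, Rbl1, Cdkn2c and Cdkn2d ranked the libraries alike, from replicate 1 at the top through 2 and 3 to 4, and so did the mean levels of lists of G1/S and G2/M genes. Genes outside these lists could rank them so too, such as Bax (310, 220, 181 and 180 CPM) and Ak1 (122, 110, 102 and 94.1 CPM), while Mdm2 did not. The share of all rows with this order was not counted, so the order is not particular to these members. Relative to the mean of 8 libraries, the G1/S list stood at 0.31, -0.56, -1.38 and -1.58 on the log2 scale in knockout replicates 1 to 4, and the G2/M list at 0.45, -0.83, -1.59 and -1.91. In WT the G1/S list lay between 0.76 and 0.83 in every library, while Cdkn2d ranged there from -0.94 to 1.11. The part of the cycle phase of the cultures in the levels of Rbl1, Cdkn2c and Cdkn2d was not tested. A list of p53 targets that leaves out Cdkn1a lay between 0.46 and 0.68 in the knockout libraries and between -0.76 and -0.44 in WT. Within WT this list did not show the high and low pairs of Cdkn1a. It stood at -0.44, -0.46, -0.62 and -0.76 in replicates 1 to 4, and Cdkn1a at -0.05, -0.64, -1.07 and -0.26.

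**Figure D4:**
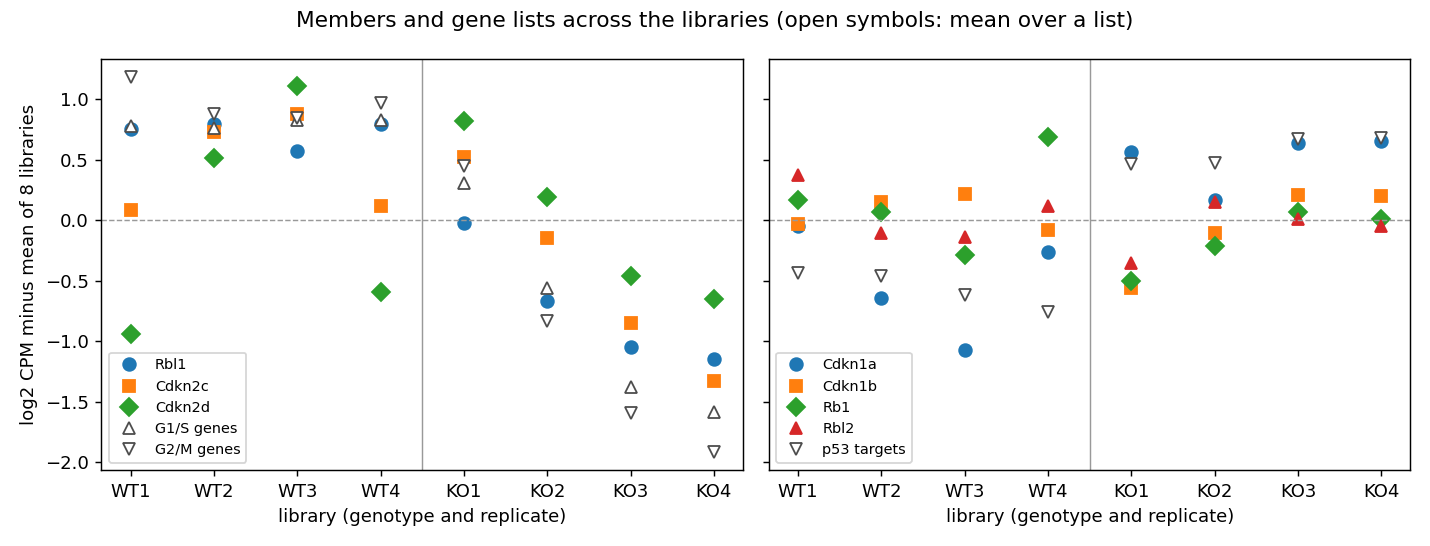
Log2 CPM of each member, and the mean over gene lists (open symbols), relative to the mean of all 8 libraries. Left, Rbl1, Cdkn2c and Cdkn2d rank the knockout libraries as the G1/S (0.31 to -1.58) and G2/M (0.45 to -1.91) lists do; right, Cdkn1a and the p53 target list are higher in the knockout libraries, while Cdkn1b, Rb1 and Rbl2 overlap between genotypes.

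Genes for cyclins, CDKs and their regulators fell in part. Of 19 genes for cyclins, CDKs and their activators and inhibitors by phosphorylation, 10 fell and none rose, with a median log2 fold change of -0.77 (all rows tested: 0.02, and 20.6% lower). Among the CDK genes of this list, only Cdk2 and Cdk4 were called. Ccne2, a cyclin E that partners CDK2, fell from 64.4 ± 11 to 21.3 ± 8.28 CPM (adjusted p = 0.00206 by edgeR). Cdk2 itself fell from 73.6 ± 5.10 to 37.6 ± 13.9 CPM (adjusted p = 0.00975). Cdc25a fell by 1.3 and the cyclin A gene Ccna2 by 2.41 on the log2 scale. The partners of the INK4 proteins and D cyclins, named after their values were seen, divided: Cdk4 fell from 600 ± 55.2 to 352 ± 128 CPM (adjusted p = 0.0274), while Cdk6 (-0.20), Ccnd1 (-0.27), Ccnd2 (0.28) and Ccnd3 (-0.39) did not pass. Without knockout replicate 3, and likewise without replicate 4, the number that fell was 5. Under some other settings 1 member was called higher.

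The E2F and DP genes fell in most cases. Of 10 genes 8 fell and none rose (median -1.09), where 20.6% of all rows tested fell. The list also holds E2f6, E2f7 and E2f8, whose products lack the domain that pocket proteins bind, and of these E2f7 and E2f8 were among those that fell. E2f2, an activating E2F, fell from 28.6 ± 1.57 to 6.29 ± 2.32 CPM (adjusted p = 0.00053 by edgeR), and the dimer partner gene Tfdp1 from 347 ± 15.6 to 138 ± 31.8 CPM (adjusted p = 0.000871). E2f4, the partner of p130 and p107 in repression, fell from 287 ± 131 to 80.9 ± 17.3 CPM (adjusted p = 0.00269), and the repressor E2f7 by 2.16 on the log2 scale. In WT E2f4 stood at 394, 172, 175 and 405 CPM, high in the alike replicates 1 and 4 and lower in 2 and 3, so the size of its fall depends on the pair. A list of 9 genes holds the MuvB core, B-MYB and FOXM1, with Mybl1 and Dyrk1a beside them. With the MuvB core, p107 and p130 or B-MYB form the DREAM and MMB complexes. Of the 9 genes 5 fell, Mybl1 among them, and none rose (median -0.61), where 20.6% of all rows tested fell. They included Lin9 (-1.44), Lin54 (-1.15), Mybl2 (-2.07) and Foxm1 (-1.62), with edgeR adjusted p between 0.00457 and 0.0131.

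Genes that these complexes control fell too, where 20.6% of all rows tested were called lower. Of 28 G1/S genes 24 fell and none rose (median -1.36), among them the polymerase genes Pola1 (-1.25) and Pole (-1.68) and the helicase subunit genes Mcm6 (-1.70) and Mcm4 (-1.65). Of 22 G2/M genes 18 fell and none rose (median -1.48), among them Cenpf (-2.37), Mki67 (-2.18), Anln (-1.34) and Cenpe (-1.91). Without knockout replicate 2 the numbers that fell were 15 G1/S genes and 10 G2/M genes, and without WT replicate 1 there were 10 G2/M genes.

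Genes that act on the CDK inhibitors went both ways. Of 13 genes for the turnover of the inhibitor proteins, 4 fell and 2 rose (median -0.25), where 20.6% of all rows tested fell and 20.9% rose, so these counts are not a result about the list. Skp2, the ubiquitin ligase subunit that marks p27 for destruction, fell from 84.5 ± 6.42 to 26.1 ± 7.41 CPM (adjusted p = 0.00059 by edgeR), and Dtl, the CUL4 adaptor that targets p21, from 117 ± 23.7 to 35.5 ± 16.8 CPM (adjusted p = 0.00323). Cul4a fell by 0.46 on the log2 scale. Fbxl12 rose from 8.75 ± 1.62 to 19.7 ± 4.27 CPM (adjusted p = 0.00323) and Rnf123, a ligase subunit for p27 in G1, by 0.61 (adjusted p = 0.0260). Without WT replicate 1 or 4, or knockout replicate 2, 3 or 4, 1 gene of this list was called higher. Of 22 genes known to regulate transcription of the inhibitors 20 were tested, of which 5 rose and 7 fell (median 0.09). Over all rows tested 20.9% rose and 20.6% fell, so these counts too are not read as a result about the list. Smad3, the TGF-beta effector that induces Cdkn2b and Cdkn1a in other cells, rose from 82.1 ± 5.25 to 250 ± 83.1 CPM (adjusted p = 0.00181). Trp53, the p53 gene, fell from 220 ± 26.7 to 115 ± 29.0 CPM (adjusted p = 0.00484). Ezh2, the Polycomb methyltransferase known to silence Cdkn2a, fell from 140 ± 41.0 to 41.4 ± 24.2 CPM (adjusted p = 0.00625). Leaving out 1 library moved this list's counts to between 2 and 9 higher and between 2 and 7 lower, with 9 higher without knockout replicate 1, 3 higher without WT replicate 2 or knockout replicate 2 or 4, and 2 higher without knockout replicate 3. The number lower was 3 without WT replicate 1, 4 without WT replicate 4 or knockout replicate 4, and 2 without knockout replicate 2 or 3. Under scaling by upper quartiles or by library size it was 2, and with the replicate block 4.

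Targets of p53 other than Cdkn1a rose in 10 of 21 cases tested, of 24 listed, and none fell, with a median of 0.77 on the log2 scale. Of all rows tested, 20.9% were called higher and 20.6% lower. Trp53inp1, a stress-induced cofactor of p53, rose from 7.79 ± 2.95 to 113 ± 29.2 CPM (adjusted p = 0.000185 by edgeR), and Btg2, an antiproliferative gene, from 6.10 ± 3.51 to 65.7 ± 23.5 CPM (adjusted p = 0.000733). Ak1 rose by 1.41 and the receptor gene Eda2r by 2.12 on the log2 scale. Mdm2, which is also in the list of regulators, rose from 170 ± 48.7 to 345 ± 46.9 CPM (adjusted p = 0.00587), a log2 fold change of 1.02 beside 0.97 for Cdkn1a. The 11 that did not pass included Ccng1 (0.71), Bax (0.57) and Sesn2 (0.19), named after their values were seen.

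**Figure D5:**
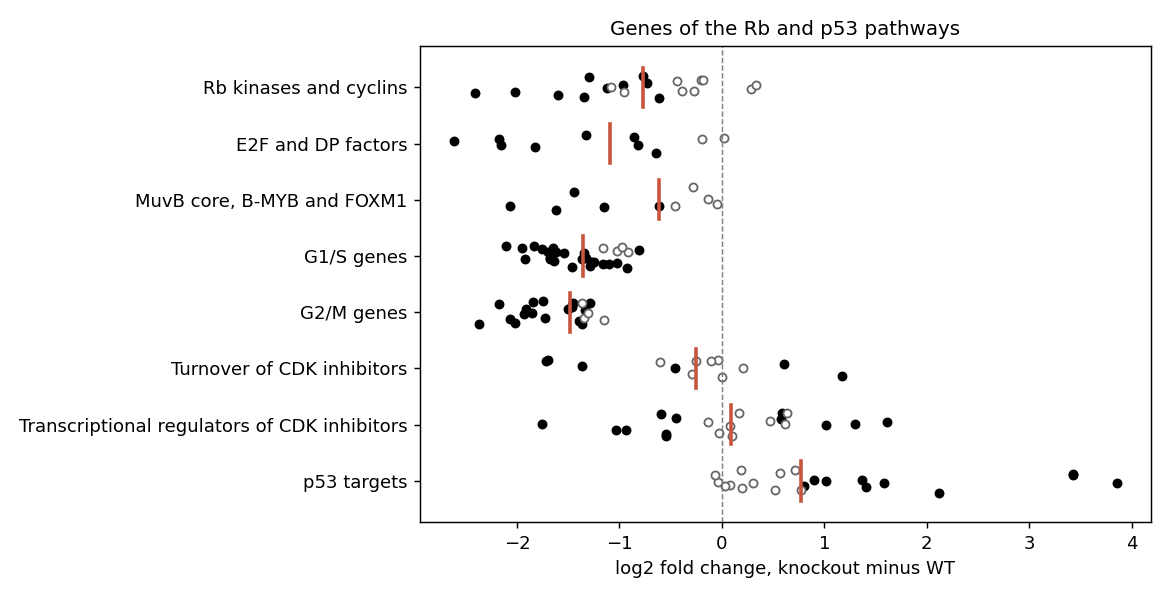
Log2 fold change (knockout minus WT) of each tested gene in 8 lists, filled where the edgeR adjusted p was under 0.05, with the list median in red. The medians run from -1.48 for G2/M genes to 0.77 for p53 targets; vertical scatter within a list only separates the points.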

How the data were processed

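Total RNA from CT26 cells was made into mRNA libraries for Illumina sequencing, per the labels' protocols. HISAT2, StringTie and GRCm38 stand in the submitters' processing notes; for the counting program, strandedness and multiply matching reads the sources used here say nothing. Values are raw whole-number counts per row, deposited by the authors in 2 tables that hold the same values. Fewer rows hold a count of 1 (101 to 225) than of 2 (288 to 981) in each library, so mates of a pair may each count, and limits from a count of 0 cover counting error only.

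Rows with low counts were dropped by filterByExpr (at least 10 counts per library at the median depth, total 15). After TMM scaling, all remaining rows entered edgeR's quasi-likelihood test (version 4.0.16 in R 4.3.3), two-sided, with no covariate and Benjamini-Hochberg adjustment. The SE is the log2 fold change's size divided by the square root of F. Coordinates and exon lengths come from GENCODE M21 on GRCm38, in which all 10 members were found, and promoter windows from RefSeq (GRCm38.p6). The test was also run on simulated counts, where it recovered most large changes and few small ones. The simulation changed only a small part of the rows and drew libraries independently, unlike these data. Its recovery therefore does not measure the power of the test here.

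The members and lists were chosen with earlier results of these data known, so they are not independent evidence. Named genes are all members, Tead1 and Tead4, the 4 members of each list with the smallest p, those called against a list's median, the neighbours of Cdkn2a and Cdkn2b, and the 3 genes most like each called member. Outside this rule, and after their values were seen, Cdk4, Cdk6, the D cyclins, E2f6, E2f8, Mybl1, Dyrk1a, Ccng1, Bax, Sesn2 and some cell type markers were named. Other settings tried were library size only, upper-quartile factors, the size factors of DESeq2, no filter, at least 5 CPM in 4 libraries, DESeq2 1.42.0, limma-voom (limma 3.58.1), the replicate number as a block, annotated genes only, an adjusted p under 0.01, raw count ratios, and each library left out.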

Additional observations from a re-analysis of the deposited data

Results flagged for a closer look

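Cdkn1c was read in a single library: knockout replicate 4 stood at 0.214 CPM, from 7 counts, while the other 3 knockout libraries and all WT libraries had 0. It was singled out as the library farthest from its group, which any count in 1 library beside 3 at 0 would be, and 0.214 CPM is to be read against the 0.0917 CPM that 3 counts make in that library.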

How the results depend on the processing

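The calls for Cdkn1a as higher and Rbl1 as lower held under all 17 other fits at an adjusted p under 0.05, with log2 fold changes of 0.80 to 1.17 (adjusted p up to 0.0251) and -1.68 to -1.22 (adjusted p up to 0.0111). At an adjusted p under 0.01 both members were still called, and 2736 rows in all (1488 higher, 1248 lower). The other members stayed outside the threshold, except Cdkn2c without knockout replicate 1 (-1.21, adjusted p = 0.014), which made 2 members lower. Upper-quartile factors and library size only moved the median over all rows tested from 0.02 to 0.20 (log2). Under them Cdkn1b stood at 0.075 and 0.084 and Rbl2 at 0.063 and 0.069, on the other side of 0 from the main values; with 1 library left out, Cdkn1b ranged from -0.185 to 0.017 (without knockout replicate 1) and Cdkn2d from -0.531 to 0.268 (without WT replicate 3), with 0.025 without knockout replicate 4. The cause of these shifts was not tested. Both scalings left 2 transcriptional regulators called lower. Of the genes for cyclins and kinases 1 was called higher under DESeq2's size factors, upper-quartile factors, library size only, the 5 CPM filter, the DESeq2 Wald test and annotated genes only. The replicate number as a block, on which the labels say nothing, gave 4683 calls and 4 transcriptional regulators called lower, changed no member's call, and same-numbered libraries did not deviate together (correlations of -0.0317 to -0.00276). With 1 library left out, the calls over all rows ranged from 3809 to 6829 (2041 to 3420 higher, 1768 to 3409 lower, the lowest without knockout replicate 3). Members called lower ranged from 1 to 2, cyclin and kinase genes from 0 to 1 higher and 5 to 14 lower, turnover genes from 1 to 2 higher, transcriptional regulators from 2 to 9 higher and 2 to 7 lower, G1/S genes from 15 to 28 lower and G2/M genes from 10 to 22 lower. With 1 library left out, the difference in log2 ratio between genotypes ranged from 0.93 to 1.48 for Rb1 to Rbl1 and from -0.30 to -0.04 for Rb1 to Rbl2; exon length cancels in these differences. The depth limits statements on Cdkn1c, Cdkn2a and Cdkn2b.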
